A study of Mus musculus with 12 samples.

Results

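The authors' deposited table of ac4C peaks assigns each peak to a class of the gene model, and the peaks described here are those whose class is the 3' untranslated region (3' UTR). They number 5614 of 19049 peaks (29.5%) and lie in 3606 genes, and 5603 of them are in protein-coding genes. Coding sequence (CDS) holds 9624 peaks, the class of other exons 3362 and the 5' UTR 434. The material was ID8, a mouse line of ovarian tumour cells that arose from surface epithelium, either as control or treated with cisplatin, a platinum drug that crosslinks DNA. Libraries were made from fragmented RNA without ribosomal RNA, once as input and once after immunoprecipitation (IP) with an ac4C antibody, which gave 4 groups of 3 libraries and 12 libraries in all. The study asked how NAT10 and ac4C act on messenger RNA under cisplatin. Both treatments used the same single cell line, with dose and time not given in the sources used here.

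N4-acetylcytidine (ac4C) is a cytidine that carries an acetyl group on its base, and NAT10 is the acetyltransferase that places it in RNA. In ribosomal and transfer RNA the mark sits at a few fixed positions, and THUMPD1 is the adaptor protein that guides the enzyme to transfer RNA. In messenger RNA it has been mapped by antibody, which reports a stretch of RNA and not the acetylated base, and the mark has been linked to stability and translation of the message. The 3' UTR follows the stop codon and holds the binding sites of microRNAs, of proteins that bind AU-rich elements and of the machinery that cuts and polyadenylates the message.

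Sequence was at hand for 5 of the peaks, from the RefSeq promoter window of a neighbouring gene on GRCm38.p6. The peaks in Foxm1, Gpd1 and Dnajc30 were 1 block each, and the 30 bases at their middle are shown. Those in Cby1 (outer ends chr15:79661422-79667219) and Cd276 (chr9:58526067-58530612) were spliced with 4 blocks, and the 30 bases shown lie near 1 outer end. All are on the strand of the peak, because ac4C forms on cytidine, and every C is in capitals.
Foxm1: CtCCtgttaCCaagtttgtaaCCagaaCtg
Gpd1: atCggaCCCaCaCaCCtCaggagCtgggga
Dnajc30: CCCtCCtCaCaCCCtCCagCCtggCCagtg
Cby1: CtaggggaCtggaaagagCCCagtgaCCag
Cd276: tCaaaggaCgtggtCCatagaCCaCCCaCa

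These stretches lie at chr6:128375322-128375351, chr15:99724452-99724481, chr5:135065017-135065046 and chr15:79667089-79667118 on the plus strand, and at chr9:58526199-58526228 on the minus strand. They hold 8, 10, 16, 7 and 10 C in that order, so that the share of C ran from 23.3% in Cby1 to 53.3% in Dnajc30. Which C carries the acetyl group cannot be read from a peak. The peak in Foxm1, a transcription factor of mitotic genes, had a fold enrichment of IP over input of 2.72 and a log2 difference between treatments of 4.87, and the one in Cd276, an immune checkpoint ligand, had 38.8 and 1.81. Fold enrichment, log2 difference and adjusted p of a peak are the authors' values throughout. Both peaks passed the adjusted p of 0.05, as did the peak in Cby1, and those in Gpd1 and Dnajc30 did not. A further peak, in the 3' UTR of the arginine methyltransferase gene Prmt2 (chr10:76207312-76207551, minus strand), contains a whole microRNA hairpin, mmu-miR-678 at chr10:76207326-76207409. Its mature sequence is given with its seed, bases 2 to 8, in capitals.
mmu-miR-678: gUCUCGGUgcaaggacuggagg

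The Prmt2 peak had a fold enrichment of 16.5 and a log2 difference of 2.32, which did not pass the authors' adjusted p.

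Expression was read from the 6 input libraries, whose deposited FPKM (fragments scaled by gene length and depth) correspond to between 20682920 and 21900044 fragments in listed genes for control and between 22201704 and 30159427 for cisplatin. The peak table holds 1 comparison over all libraries, so that no spread between replicates can be given for a peak, and the depth of the IP libraries is unknown. The header of the table does not state which treatment its log2 difference is relative to, so differences are called positive or negative and not gain or loss. The labels do not tell whether replicates came from separate cultures, so p-values cover only the spread among the libraries sequenced, possibly a technical one. The label was checked against markers of ovarian surface epithelium and mesothelium: all 13 are listed, and 9 were at 1 FPKM or more in all 6 libraries, with Krt18 at 466 to 477 FPKM in control and 841 to 928 in cisplatin libraries and Krt7 under 1 FPKM. Within that list Wt1 was at 44.3 to 46.3 FPKM in control and 11.7 to 12.8 in cisplatin libraries, and Amhr2 at 8.03 to 8.92 and 0.115 to 0.385. Krt8, Krt19, Msln and Upk1b were higher in every cisplatin library than in any control library, and Upk3b, Lrrn4, Cdh2 and Gas1 lower. Of 8 immune markers only Cd68 is listed, a lysosomal membrane protein gene, at 2.22 to 2.57 FPKM in control and 7.50 to 9.72 in cisplatin libraries. Of 5 endothelial markers only Tek is listed, at 0.723 to 0.931 and 2.55 to 2.81 FPKM, and of 5 granulosa markers only Inha, at 2.34 to 2.72 and 0 to 0.0279. Of 5 fibroblast markers 4 are listed, with a sum of 23.7 to 24.6 FPKM in control and 17.1 to 18.7 in cisplatin libraries, and none of 3 erythroid markers is. Of the fibroblast markers, Pdgfra (6.13 to 6.68 and 1.85 to 2.15 FPKM) and Dcn (12.5 to 13.1 and 8.98 to 10.9) were lower in cisplatin libraries. Col1a1 was higher (4.72 to 5.19 and 5.84 to 6.00), and Pdgfrb was under 1 FPKM.

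Most of the 3' UTR peaks were short and unspliced. Their median width was 181 bases, with quartiles of 151 and 240, and 5231 of them (93.2%) were a single block without an intron. Peaks of several blocks span exon junctions, so that part of them can lie outside the 3' UTR. Such peaks named above or below include ones in Cby1, Cd276, Lgals1, Pabpc4, Noc2l, Pcbp2, Plk2, Klf4, Skil, Bmp1, Csf1, Insig1, Nfat5 and Ercc4. The median fold enrichment, the authors' value for each peak, was 8.23 with quartiles of 4.51 and 13.7, beside 5.54 in CDS, 8.23 in 5' UTR and 7.05 over all peaks. Values ran from 1.2 to 208, with 5450 of the 5614 peaks at 2 or more, and 733 peaks (13.1%) reached 20 or more. In the plot of distributions by class, the 3' UTR curve of fold enrichment lies to the right of both CDS curves. It shares its median with the 5' UTR, whose upper quartile was 11.8. In genes at 1 to 5 FPKM in input, the median was 9.4 for 3' UTR peaks and for CDS peaks inside 1 exon and across exon junctions. Under 1 FPKM the medians were 9.11, 9.4 and 8.23 in that order, and at 5 to 20 FPKM 8.23, 5.955 and 6.265.

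**Figure D1:**
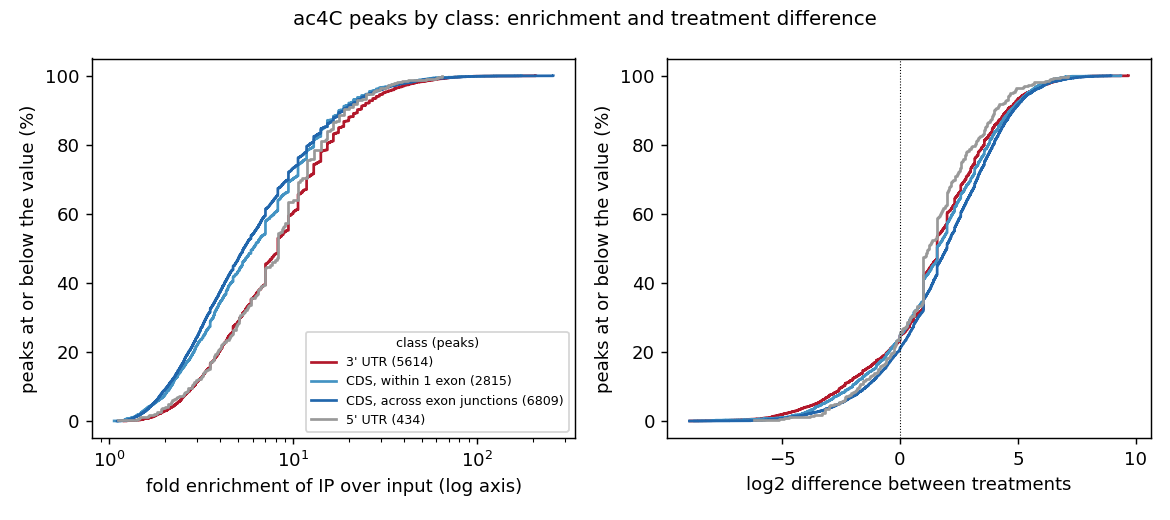
Cumulative share of peaks (percent) against fold enrichment of IP over input on a log axis (left) and against the authors' log2 difference between treatments (right), 1 line per class with its number of peaks. The 3' UTR line lies right of the CDS lines on the left, with medians of 8.23 and 5.54 for 3' UTR and all CDS peaks, and the steps at single values are visible in both panels.

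Positions were set against the span of the RefSeq gene of the same name, which 5561 peaks matched. Of these, 5340 overlapped that gene, at a median of 1317 bases from its 3' end (quartiles 599 and 2601), and at a median of 95.7% of the way along it. A distance of at most 500 bases was seen for 1092 (20.4%). Of the 5340 peaks, 117 (2.19%) lay nearer to the 5' end of the gene than to its 3' end. CDS peaks lay at a median of 10239 bases from the 3' end. The other 221 matched peaks began beyond the annotated end, at a median of 1292 bases downstream of it, so that the authors' annotation reaches further there than the RefSeq span. The longest such run was in Tmem245, where 7 of the 11 peaks of the gene lay past the RefSeq end. Another protein-coding gene overlapped 505 of the peaks (9.0%), and reads there may come from either gene unless counting used the strand, which no source used here states.

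At the authors' adjusted p of 0.05, 2032 of the 5614 peaks (36.2%) differed between the treatments, against 46.2% of all peaks. Positive differences were called for 1536 peaks (27.4%, beside 36.5% of all peaks) and negative ones for 496 (8.84%, beside 9.62%). The median log2 difference of the 5614 peaks was 1.58 with quartiles of 0.07 and 3.17, and 75.3% were above 0, beside 75.8% of all peaks. Among called peaks the median was 3.91 for the positive and -3.24 for the negative ones, and 487 had an absolute log2 difference of 5 or more, 388 positive and 99 negative. CDS peaks inside 1 exon were called in 46.7%, those across exon junctions in 59.8% and 5' UTR peaks in 33.9%. By distance from the 3' end the share called was 31.7% under 250 bases, 37.5% from 250 to 1000, 37.4% from 1000 to 3000 and 36.3% beyond. The differences between classes were not tested, since the table has no value per library.

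The share called was larger where the RNA that carries the peak was more abundant. Among 3' UTR peaks it was 16.6% in genes at 1 to 5 FPKM, 33.7% at 5 to 20, 54.4% at 20 to 100 and 75.4% at 100 or more. In each of these ranges the shares of both kinds of CDS peaks were higher, for example 71.4% and 77.4% at 20 to 100 FPKM. Under 1 FPKM the order was different, with 19.8% of 242 peaks in 3' UTRs and 10% of 130 CDS peaks inside 1 exon. Sorted instead by the authors' log10 p of the enrichment, 82.5% of 824 3' UTR peaks under -20 were called and 11.1% of 2704 peaks above -5, and CDS peaks inside 1 exon gave 87.6% and 17.2%. The part of RNA level in the smaller share of called 3' UTR peaks was not tested.

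**Figure D2:**
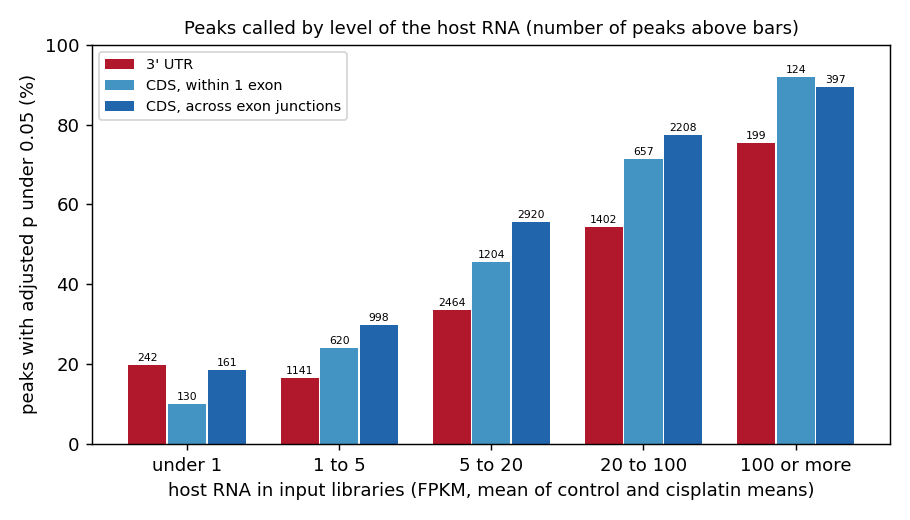
Percent of peaks with an authors' adjusted p under 0.05 (y) by FPKM range of the host RNA in input (x, mean of the control and cisplatin means), for 3' UTR peaks and the 2 kinds of CDS peaks, with the number of peaks above each bar. The 3' UTR bars climb from 16.6% at 1 to 5 FPKM to 75.4% at 100 FPKM or more and stand below the CDS bars from 1 FPKM up.

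Many of the peaks shared exactly the same values. A log2 difference of exactly 1 was listed for 546 of the 3' UTR peaks, 1.58 for 368 and 0 for 92. Within the rounding of the printed values, 2053 peaks (36.6%) had the log2 of a whole number up to 16 or its negative. The share was 27.2% over all peaks, 18.9% in CDS and 37.8% in 5' UTR. Of the 2053 peaks 4.77% were called, against 54.3% of the other 3' UTR peaks. Fold enrichments repeated in the same way: of 4881 3' UTR peaks under 20, 2237 (45.8%) were, within rounding, whole multiples of 1.175. That step was picked because it matched the most peaks of all classes, 35.2% of all peaks under 20. The median over other steps tried was 1.71% of all peaks under 20 and the highest 8.81%. 3' UTR peaks on the step of 1.175 were called in 12.3% and the others in 52%. The median of 1.58 given above for the class is itself one of the repeated values, and the histogram of log2 differences has its highest bars at 1 and 1.58. The median fold enrichment of 8.23, the same in 3' UTR and 5' UTR peaks, is a repeated value on the step too. Of all 3' UTR peaks 39.8% were on the step, and of 5' UTR peaks 45.6%, so equal medians need not mean equal enrichment.

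**Figure D3:**
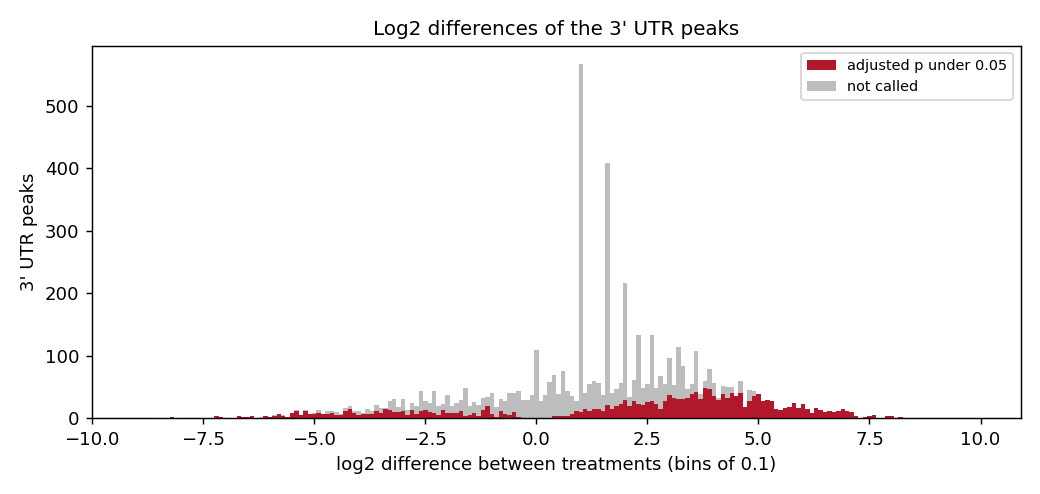
Number of 3' UTR peaks (y) by the authors' log2 difference between treatments in bins of 0.1 (x), stacked by whether the adjusted p was under 0.05. The bars at exactly 1 (546 peaks) and 1.58 (368 peaks) are nearly all uncalled, and the 1536 called positive peaks have a median of 3.91.

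Peaks with the largest differences lay on RNAs that rose, that fell and that did not pass the test. Host RNA here means the input FPKM of the gene that holds the peak, and log2 changes of it are cisplatin minus control on the scale of log2(FPKM + 1), which understates the change of low genes. Groups without overlap were common, with 84.4% of tested genes with a 3' UTR peak and 84.2% of all tested genes. The most positive peak, 9.69 on the log2 scale with a log10 adjusted p of -13, was in Tcf25 (chr8:123401829-123402009, plus strand), which encodes a factor of ribosome quality control. Tcf25 RNA was 34.6, 33.0 and 33.3 FPKM in control and 45.3, 44.7 and 42.5 in cisplatin libraries. These groups did not overlap, and the log2 change was 0.38 ± 0.04 (SE, limma adjusted p = 4.6e-05). Slc7a1, the cationic amino acid transporter, followed at 8.67 (chr5:148329776-148330045, minus strand), and its RNA went from 16.2 to 16.4 FPKM in control to 17.6 to 19.2 in cisplatin libraries, a rise that did not pass after scaling the libraries to a common FPKM sum (limma adjusted p = 0.116).

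The peak in Numa1, whose protein organises spindle poles, had a log2 difference of 8.16 and a log10 adjusted p of -27.5 (chr7:102014544-102014814, plus strand). Numa1 RNA was 62.5, 65.0 and 63.2 FPKM in control and 61.5, 64.8 and 59.1 in cisplatin libraries, which overlap (log2 change -0.04 ± 0.04, limma adjusted p = 0.37). The change passed as a fall with quantile normalization (-0.21, adjusted p = 0.00143) and with a common FPKM sum (-0.14, adjusted p = 0.0194). Cebpa, a transcription factor gene of differentiation, likewise had a peak at 8.01 and overlapping RNA levels, 2.99 to 3.46 FPKM in control and 2.79 to 3.61 in cisplatin libraries. In Tnks, the poly-ADP-ribose polymerase tankyrase, a peak at 8.16 had a fold enrichment of only 1.72. Tnks RNA fell from 9.12 ± 0.33 to 5.43 ± 0.21 FPKM (mean ± SD over 3 libraries, the form used for levels below). In Mical3, an actin-oxidising monooxygenase, a peak at 7.98 lay on an RNA that fell from 13.4 ± 0.372 to 7.53 ± 0.464 FPKM, and Gabpb2 and Pak4 were of the same kind. Of the 10 most positive peaks, those in Tcf25, Slc7a1, Casc4 and Fgfr1op2 were on RNAs that rose, those in Gabpb2, Tnks, Pak4 and Mical3 on RNAs that fell, and those in Numa1 and Cebpa on RNAs that did not pass, of which Numa1 passed as lower under both other scalings.

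On the negative side the largest difference, -8.89 with a log10 adjusted p of -4.15, was in Prr3 (chr17:35973077-35973345, minus strand), a gene of the major histocompatibility region. Its RNA was 7.35 to 7.88 FPKM in control and 3.39 to 6.55 in cisplatin libraries (limma adjusted p = 0.0418, lost when any single control library was left out, with adjusted p of 0.0797 to 0.103). Oxct1, the mitochondrial enzyme that starts ketone body use, had a peak at -8.23 with a log10 adjusted p of -69.4 (chr15:4153852-4154001, plus strand). Its RNA was 106, 104 and 103 FPKM in control and 51.6, 50.3 and 55.3 in cisplatin libraries, without overlap (log2 change -0.98 ± 0.04, limma adjusted p = 6.87e-07).

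Uhrf1, whose protein keeps DNA methylation through replication, had a peak at -7.81 with a log10 adjusted p of -73.8 (chr17:56322616-56322796, plus strand). Its RNA rose from 59.6 ± 1.21 to 115 ± 5.61 FPKM. Gemin5, a subunit of the complex that assembles spliceosomal particles, had a peak at -8.14 (chr11:58120421-58120631, minus strand) and its RNA rose from 7.12 ± 0.185 to 16.1 ± 0.219 FPKM. Abhd4, a lipase of N-acyl phospholipids, had a peak at -8.2 with a log10 adjusted p of -71.6, and its RNA rose from 10.04 ± 0.428 to 20.9 ± 1.73 FPKM. Zbtb6 and Lsm14b, with peaks at -8.73 and -7.55, were also on RNAs that rose, while the RNA of Kifap3 (peak at -7.28) overlapped between the groups at 13.7 to 15.03 and 14.3 to 16.1 FPKM.

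The most enriched peak of the class lay in Frrs1, a ferric reductase gene, at 208-fold over input (chr3:116903318-116903558, plus strand), with a log2 difference of -5.49 and a log10 adjusted p of -70.0. Frrs1 RNA was 6.98, 6.77 and 7.27 FPKM in control and 15.3, 15.5 and 15.97 in cisplatin libraries. The groups did not overlap (log2 change 1.05 ± 0.04, limma adjusted p = 6.89e-07). Ift122, a gene of transport within cilia, followed at 167-fold with a log2 difference of -7.14, which passed narrowly at a log10 adjusted p of -1.32, where the threshold is -1.3. Pim1, a serine/threonine kinase that promotes survival, stood at 141-fold with a difference of 3.75 in a peak of 481 bases (chr17:29495062-29495542, plus strand). Pim1 RNA was 26.2, 26.8 and 24.3 FPKM in control and 57.5, 62.7 and 58.8 in cisplatin libraries, again without overlap.

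High enrichment did not come with 1 direction. Cflar, the inhibitor of caspase-8 activation, had a peak at 109-fold with a log2 difference of -0.77 that did not pass, and Lrp8, a receptor of reelin, one at 123-fold and -4.58 that did not pass either. Mfap3 (119-fold, -6.36) was called negative, and Cd2bp2 (105-fold, 5.95) and Agpat1 (95.2-fold, 2.41) were called positive. Of the 8 most enriched peaks, 3 were thus called negative, 3 positive and 2 not.

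In some genes with several peaks the single peaks differed in sign. One peak was found in 2352 genes (65.2%), 2 peaks in 792, and 1254 genes had 2 or more. Among 2008 pairs of neighbouring peaks of a gene, both were called in 409, of which 253 were both positive, 22 both negative and 134 (32.8%) of opposite sign. For pairs less than 500 bases apart the share of opposite sign was 32.4%, from 500 to 1000 bases 37.6%, and for 1000 bases or more 27.1%. Both signs were called in 129 genes, of 1254 with 2 or more peaks and of 1544 with a called 3' UTR peak. Of all called 3' UTR peaks 75.6% were positive. Whether neighbours differ in sign more or less than unrelated called peaks was not tested. Peaks of a gene share their RNA and are not replicates of each other.

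Cdk6, the G1 kinase partner of D-type cyclins, had the most peaks, 12 over a stretch from 8372 to 1198 bases before its 3' end. Of them 4 were called positive, at 4.93, 3.63, 6.94 and 4.83 in order along the message, and 2 negative, at -4.25 and -4.95. The negative peak at chr5:3524029-3524179 lay just after the positive one at chr5:3523520-3523759, and the negative one at chr5:3527893-3528073 between the positive ones at chr5:3526994-3527384 and chr5:3528732-3529241. Cdk6 RNA itself was 12.7, 12.3 and 12.6 FPKM in control and 14.4, 14.1 and 14.4 in cisplatin libraries, a log2 change of 0.18 ± 0.04 (limma adjusted p = 0.00262, and 0.0623 after scaling to a common FPKM sum).

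Nfat5, the transcription factor of the osmotic stress response, had 9 peaks. Those at 2.18, 1.91, 4.96, 5.7 and 3.83 were called positive, the one at 4.96 with a fold enrichment of only 1.51. The one at -1.87 was called negative (chr8:107375770-107376039, plus strand). Nfat5 RNA overlapped between the groups at 11.6 to 12.2 and 10.97 to 11.7 FPKM (limma adjusted p = 0.161, and 0.00777 with a common FPKM sum, where the log2 change was -0.16). Ptpn14, a phosphatase that restrains YAP, also had 9 peaks, on an RNA at 17.0 to 17.4 and 17.1 to 18.2 FPKM. Those at 6.67, 4.04, 5.22, 5.58 and 3.81 were called, all positive, the one at 5.22 with a fold enrichment of only 1.75. The 11 peaks of Tmem245, a membrane protein gene, included called values of 3.63, 5.15 and 4.32 and 1 of -2.39. Cmtm4, which helps to keep the checkpoint ligand PD-L1 at the cell surface, had 8 peaks, called at 3.94 and 1.01 only. Lrrc58 also had 8 peaks and was left out by the order of names.

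**Figure D4:**
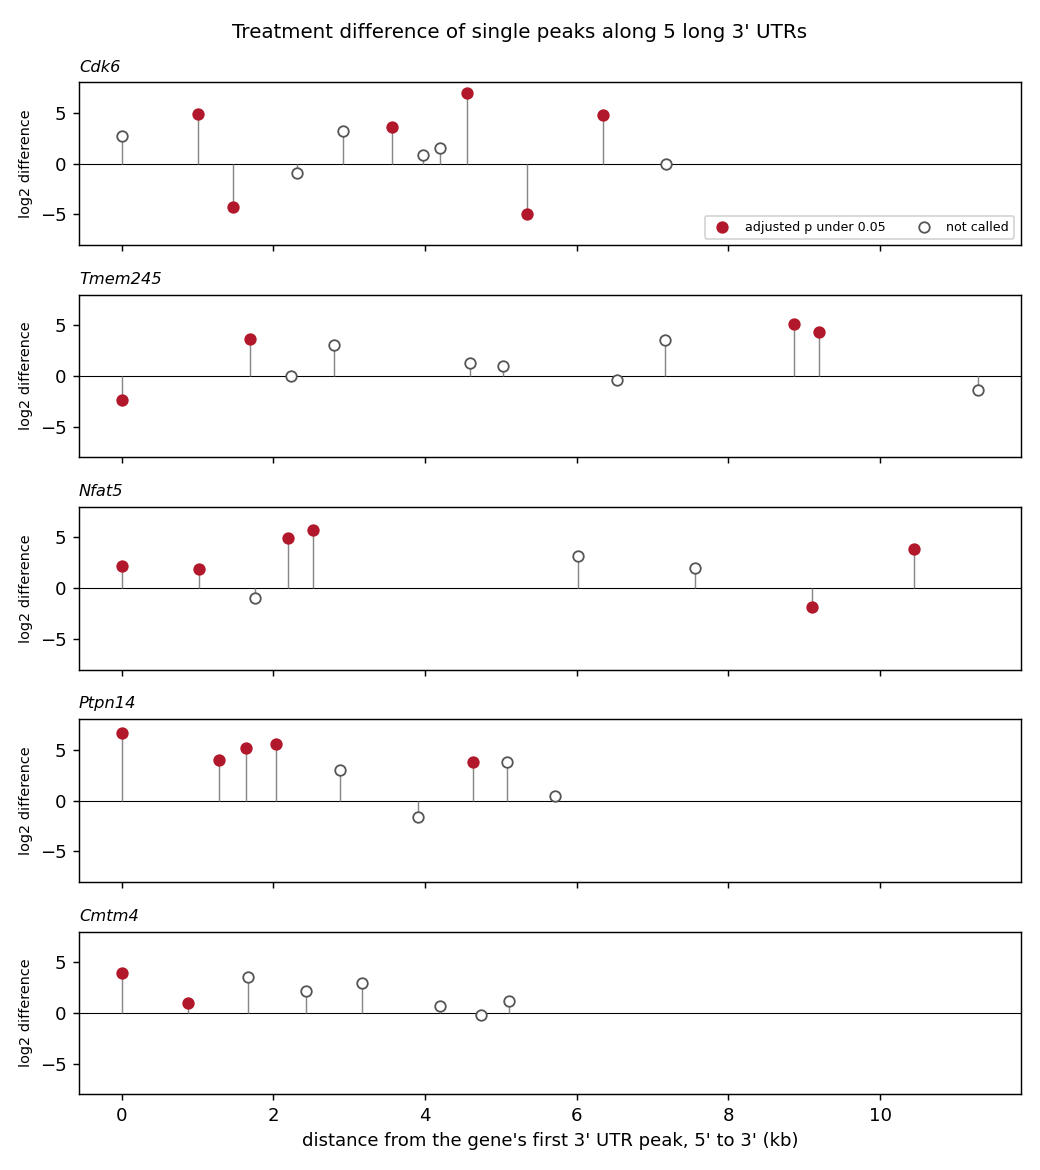
The authors' log2 difference between treatments (y) of each 3' UTR peak against its distance in kb from the gene's first peak, 5' to 3' (x), in the 5 genes with the most peaks, filled where the adjusted p was under 0.05. Called peaks of Cdk6 are of both signs, with values such as 4.93 and -4.25, whereas the called peaks of Ptpn14 are all above 0.

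Peaks in the CDS of the same genes offered a comparison within the same RNA. Of the 3606 genes, 2093 (58%) also had a CDS peak. The mean fold enrichment of the 3' UTR peaks was above that of the CDS peaks in 1327 of these genes (63.4%) and below in 755, with a median ratio of 1.398. The log2 difference of the 3' UTR peaks was below that of the CDS peaks in 1148 genes and above in 940, with a median of -0.36 and quartiles of -2.24 and 1.52 for 3' UTR minus CDS. In 596 genes both regions were called in a single direction each. Both were positive in 414 and both negative in 20, and they opposed in 71 with a positive and 91 with a negative 3' UTR.

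The genes that carry a 3' UTR peak were then examined in the input libraries. Of 3606 genes 3479 are listed and 3334 were tested, those at 1 FPKM or more in 3 libraries. With limma at an adjusted p of 0.05, 2687 (80.6%) differed between cisplatin and control, beside 81.3% of all tested genes. Of these 1432 were higher in cisplatin (43% of those tested, beside 40.1% of all tested genes) and 1255 lower (37.6%, beside 41.1%). The order turned to 1238 higher and 1464 lower when the libraries were scaled to a common FPKM sum. Among tested genes with a peak of any class, 42.3% were higher and 37.8% lower without that scaling. On the scale of log2(FPKM + 1), 13.9% of genes with a 3' UTR peak and 23.9% of all tested genes changed by at least 1. Genes with any peak gave 15.7%, and those with a CDS but no 3' UTR peak 16.5%. These differences were not tested. The median level in control libraries was 9.52 FPKM for the 3479 listed genes with a 3' UTR peak, 8.01 for listed genes with any peak and 3.89 for all 14852 listed genes. Markers of the epithelial and fibroblast lists differed between the treatments in both directions, and Cd68, Tek and Inha differed too, as given above. Their part in these results was not tested. In bulk RNA, fewer cells of a type and less RNA per cell cannot be told apart.

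Peak and host RNA directions combined in every way. Of 1050 tested genes with only positive called peaks, 471 (44.9%) were higher and 363 (34.6%) lower in cisplatin. Of 306 with only negative ones, 132 (43.1%) were higher and 133 (43.5%) lower, and of 1860 without a called peak 781 (42%) were higher and 716 (38.5%) lower. Counted over peaks of all classes, tested genes with only positive called peaks were higher in 43.9% and lower in 35.9%. Those with only negative ones were higher in 39.6% and lower in 40.6%. The 3' UTR shares are near these and were not tested against them. The peak difference and the RNA change share the input libraries. The genes below stand for the combinations and were chosen for large values of both.

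With a positive peak and more RNA, Sbds, which releases a block on the large ribosomal subunit, had a peak at 5.77 (chr5:130245970-130246329, minus strand). Its RNA was 18.9, 19.9 and 19.0 FPKM in control and 72.7, 72.2 and 69.9 in cisplatin libraries (log2 change 1.84 ± 0.04, limma adjusted p = 6.31e-08). The death receptor gene Tnfrsf10b had a peak at 6.26 and went from 0.725 ± 0.0937 to 4.33 ± 0.0225 FPKM. With a positive peak and less RNA, Hcfc1r1 had a peak at 4.92 and fell from 4.80 ± 0.77 to 0.334 ± 0.267 FPKM, and Tmem222 had one at 5.71 and fell from 7.04 ± 0.732 to 1.83 ± 0.48 FPKM. Dynlt1f (peak at 6.57, from 13.5 ± 0.935 to 3.87 ± 1.57 FPKM) has near-identical copies beside it, so that its values are uncertain.

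With a negative peak and more RNA, Cd44, the hyaluronan receptor, had a peak at -5.87 with a log10 adjusted p of -19.8 (chr2:102813239-102813419, minus strand), the only called one of its 5. This peak stood little above input, with a fold enrichment of 1.62 and a log10 p of the enrichment of -2.97. Cd44 RNA was 8.30, 8.30 and 8.01 FPKM in control and 28.2, 26.9 and 29.0 in cisplatin libraries, far apart (log2 change 1.66 ± 0.04, limma adjusted p = 1.14e-07). Rnf41 (peak at -7.2) rose from 7.21 ± 0.24 to 17.3 ± 1.44 FPKM. With a negative peak and less RNA, Elmo1, an activator of Rac in cell movement, had a peak at -6.39 (chr13:20605328-20605478, plus strand). Elmo1 RNA was 8.62, 9.06 and 8.79 FPKM in control and 0.438, 0.336 and 0.378 in cisplatin libraries (log2 change -2.83 ± 0.06, limma adjusted p = 6.96e-08). Agap1 (peak at -4.43) fell from 30.7 ± 0.532 to 7.57 ± 0.424 FPKM, and the signalling adaptor Gab2 (peak at -5.35) from 2.97 ± 0.034 to 0.399 ± 0.103 FPKM.

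**Figure D5:**
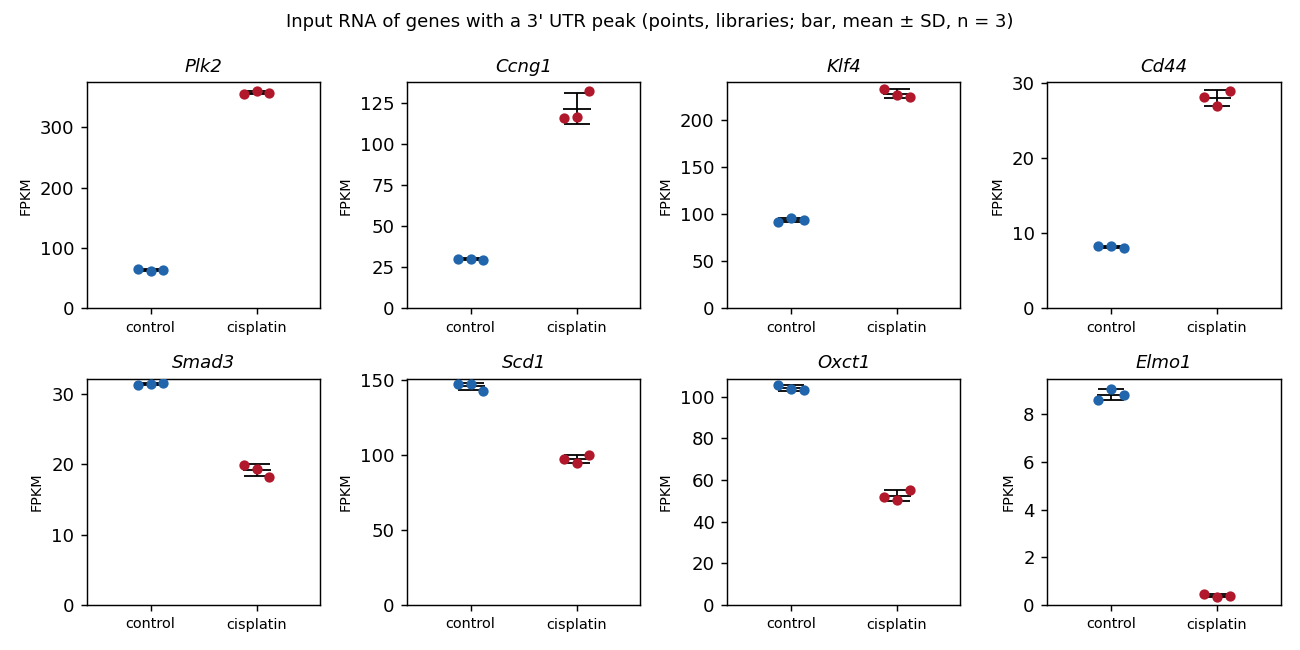
Input RNA in FPKM (y, from 0) of 8 genes with a 3' UTR peak in the 3 control and 3 cisplatin libraries (x), with points for libraries and bars for mean ± SD. The groups do not overlap in any of the 8, from Plk2, which went from 63.1 to 357 FPKM, to Elmo1, which went from 8.82 to 0.384 FPKM. The same held for 84.2% of all tested genes.

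The counts of each gene list that follows stand beside the shares over all features, which were 36.5% positive and 9.62% negative of all peaks, and 40.1% higher and 41.1% lower of all tested RNAs, whose median log2 change was -0.003. The lists count 3' UTR peaks only, and of all 3' UTR peaks 27.4% were positive and 8.84% negative. No list was tested against these shares. Of 35 genes for AU-rich and other 3' UTR binding proteins, 20 had 33 peaks, 6 called positive (18.2%) and 3 negative (9.09%), the latter near the share of all peaks. Of the 20 host RNAs 14 rose (70%) and 3 fell (15%), with a median log2 change of 0.27. Zfp36, which encodes tristetraprolin and promotes decay of AU-rich messages, had a peak at -5.07 with a log10 adjusted p of -15 (chr7:28377113-28377472, minus strand). Zfp36 RNA was 1.75, 1.38 and 1.78 FPKM in control and 3.68, 3.85 and 3.70 in cisplatin libraries, without overlap (log2 change 0.85 ± 0.08, limma adjusted p = 2.68e-05). Rc3h1, which encodes the RNA-binding ubiquitin ligase roquin, had 4 peaks, the strongest of them at 6.49, and its RNA rose from 4.21 ± 0.327 to 11.3 ± 0.433 FPKM. Pcbp2, a poly(C)-binding protein gene, had a peak at 0.89 that also overlaps another gene, and its rise from 93.8 ± 1.32 to 111 ± 2.85 FPKM did not pass after quantile normalization (limma adjusted p = 0.799).

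Of 37 genes for deadenylation, decapping and microRNA silencing, 18 had 42 peaks, 6 called positive (14.3%) and 5 negative (11.9%). Of the 18 host RNAs 11 rose (61.1%) and 5 fell (27.8%), with a median log2 change of 0.21, and with a common FPKM sum 8 rose and 6 fell. Ago2, the slicing Argonaute, had 6 peaks, of which the neighbours at chr15:73104300-73104480 and chr15:73104660-73104840 were called with opposite signs, -5.09 and 4.46. Its RNA was 16.9, 17.0 and 16.3 FPKM in control and 19.6, 20.4 and 19.4 in cisplatin libraries. Ddx6, a helicase of decapping complexes, had called peaks at 6.05 and 2.94 and rose from 22.3 ± 0.891 to 32.7 ± 0.59 FPKM. Cnot6l, a deadenylase subunit, had a peak at 5.25 and fell from 6.69 ± 0.0544 to 2.73 ± 0.108 FPKM. Of 25 cleavage and polyadenylation factors 5 had a 3' UTR peak, where 3479 of all 14852 listed genes did. They held 13 peaks in all, 6 positive (46.2%, beside 36.5% of all peaks and 27.4% of all 3' UTR peaks) and none negative. Of these 5 host RNAs 1 rose and 1 fell. Pabpc4, a poly(A)-binding protein gene, had 2 of these peaks, at 3.22 with a log10 adjusted p of -143 and at 4.33. The peak at 3.22 was spliced with 5 blocks, and its middle lay 6400 bases from the 3' end of the gene. Pabpc4 RNA was 39.1 to 40.1 FPKM in control and 41.4 to 42.1 in cisplatin libraries (log2 change 0.07 ± 0.03, limma adjusted p = 0.0688). Quantile normalization turned that change to -0.09 (adjusted p = 0.0193), a fall that passed.

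Among 31 RNA modification enzymes, 12 had 19 peaks, 6 positive (31.6%) and 4 negative (21.1%). Of the 12 host RNAs 7 rose (58.3%) and 2 fell (16.7%), with a median log2 change of 0.23. Nat10 had no peak in its 3' UTR. Thumpd1, its adaptor on transfer RNA, had 1 at -1.56 with a log10 adjusted p of -7.98 (chr7:119715777-119715926, minus strand). Thumpd1 RNA was 38.5, 39.6 and 39.9 FPKM in control and 45.2, 42.7 and 50.1 in cisplatin libraries, which do not overlap (log2 change 0.22 ± 0.06, limma adjusted p = 0.00982, and 0.0796 and 0.4 with a common FPKM sum and quantile normalization). Nsun2, a cytosine methyltransferase of RNA, had a peak at -5.23 with a log10 adjusted p of -49.9 and its RNA rose from 29.2 ± 0.411 to 59.6 ± 1.7 FPKM. Alkbh5, a demethylase of m6A, had a negative peak at -5.15 and positive ones at 2.45 and 0.55 on an RNA at 15.7 to 16.5 and 16.3 to 16.6 FPKM.

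The TGF-beta pathway, which the title of the study names, had 37 peaks in 21 of 40 genes, 9 positive (24.3%) and 4 negative (10.8%). Of the 21 host RNAs 10 rose and 10 fell (47.6% each), beside 40.1% and 41.1% of all tested genes. Among ligands, Tgfb1 and Tgfb3 had no 3' UTR peak, nor did Cd274, which encodes PD-L1. Tgfb2 had 1, at -1.42 with a log10 adjusted p of -1.67 (chr1:186624672-186624911, minus strand). Its RNA was 10.4, 10.7 and 9.47 FPKM in control and 4.78, 4.70 and 5.69 in cisplatin libraries, without overlap (log2 change -0.89 ± 0.08, limma adjusted p = 2.68e-05).

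Among receptors, Tgfbr1 had a peak at -2.74 (chr4:47411904-47412084, plus strand) and one at 1.58 that did not pass. Tgfbr1 RNA was 5.93, 5.74 and 5.15 FPKM in control and 9.65, 9.60 and 9.63 in cisplatin libraries. Tgfbr2 had a peak at 4.62 (chr9:116088401-116088641, minus strand) and one at -0.51 that did not pass. Tgfbr2 RNA was 22.3, 22.8 and 22.05 FPKM in control and 19.2, 21.3 and 19.99 in cisplatin libraries, a small fall (limma adjusted p = 0.0212) that did not pass without control replicate 1 or 2 or cisplatin replicate 1 (0.0575, 0.0779 and 0.0698). The coreceptor gene Tgfbr3 had 1 peak at -2.58 that did not pass, on an RNA that fell from 1.88 ± 0.0154 to 1.02 ± 0.143 FPKM. Downstream, Smad3, a receptor-activated transcription factor, had 3 positive peaks of 4, at 5.17, 3.2 and 4.43, and fell from 31.4 ± 0.134 to 19.2 ± 0.868 FPKM. Skil, which represses SMAD targets, had a peak at 2.03 and rose from 11.1 ± 0.209 to 18.04 ± 1.13 FPKM. Bmp1, a protease that matures collagens and ligands, had a peak at 5.28 and fell from 4.19 ± 0.117 to 2.27 ± 0.0496 FPKM.

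Targets of p53, the transcription factor activated by DNA damage, had 30 peaks in 15 of 37 genes. Of these 10 were called positive (33.3%) and none negative, beside 36.5% and 9.62% of all peaks. Among all 3' UTR peaks the shares were 27.4% and 8.84%. Of the 15 host RNAs 13 rose (86.7%) and 2 fell (13.3%), beside 40.1% and 41.1% of all tested genes, with a median log2 change of 1.36 and the same counts under quantile normalization and a common FPKM sum. Plk2, a kinase gene, had a spliced peak of 989 exonic bases at 2.38 with a log10 adjusted p of -48.2 (outer ends chr13:110399236-110400754, plus strand). Plk2 RNA was 64.5, 61.4 and 63.6 FPKM in control and 355, 359 and 357 in cisplatin libraries (log2 change 2.48 ± 0.03, limma adjusted p = 2.67e-08). Perp, an apoptosis effector of the plasma membrane, had a peak at 2.52 with a log10 adjusted p of -137 and rose from 49.9 ± 0.389 to 127 ± 9.13 FPKM. Ccng1, cyclin G1, had a peak at 1.75 and 2 others that did not pass, and rose from 29.8 ± 0.591 to 122 ± 9.34 FPKM.

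Immediate early and AP-1 genes, which respond fast to stress and growth signals, had 37 peaks in 21 of 33 genes, 8 positive (21.6%) and 6 negative (16.2%). Of the 21 host RNAs 16 rose (76.2%) and 3 fell (14.3%), with a median log2 change of 1.07. Klf4, a zinc finger factor, had a peak at 1.34 with a log10 adjusted p of -117. Klf4 RNA was 91.9, 96.3 and 94.3 FPKM in control and 233, 227 and 225 in cisplatin libraries, without overlap (log2 change 1.27 ± 0.03, limma adjusted p = 1.16e-07). Fosl2, an AP-1 subunit, had 6 peaks, of which those at 3.29 and at -1.07 and -5.7 were called, the last at 81.8-fold enrichment (chr5:32156583-32156853, plus strand). Its RNA rose from 17.7 ± 0.402 to 34.3 ± 1.52 FPKM. Mafk, a small MAF factor gene, had a peak at 1.74 and rose from 16.04 ± 0.311 to 39.4 ± 2.65 FPKM.

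Genes of the cell cycle, replication and mitosis had 44 peaks in 18 of 46 genes, 16 positive (36.4%) and 4 negative (9.09%), both near the 36.5% and 9.62% of all peaks. The shares of all 3' UTR peaks were 27.4% and 8.84%. Of the 18 host RNAs 14 rose (77.8%) and 3 fell (16.7%), with a median log2 change of 0.64. Ccnd1, cyclin D1, had 4 peaks, 3 of them positive at 0.84, 2.96 and 1.05. Ccnd1 RNA was 61.4, 63.4 and 60.2 FPKM in control and 180, 184 and 182 in cisplatin libraries (log2 change 1.54 ± 0.03, limma adjusted p = 6.82e-08). Ccnd2, cyclin D2, had 5 called peaks of both signs, at -2.65, 2.71, 1.76, 4.82 and 4.59, and rose from 12.2 ± 0.698 to 22.5 ± 0.367 FPKM. DNA repair genes had 17 peaks in 11 of 41 genes, 3 positive (17.6%) and none negative, with 7 host RNAs that rose (63.6%) and 2 that fell (18.2%), and the positive ones included peaks in Lig3 (5.91, where another gene overlaps and values are uncertain) and Ercc4 (5.17). Apoptosis genes had 31 peaks in 18 of 33 genes, 8 positive (25.8%) and 2 negative (6.45%). Of the 18 host RNAs 12 rose (66.7%) and 2 fell (11.1%), which became 10 and 4 with a common FPKM sum. Mcl1, an inhibitor of apoptosis, had neighbouring peaks at -0.65 and 4.85, both called, and rose from 17.3 ± 0.0688 to 21.7 ± 2.34 FPKM.

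Checkpoint, chemokine and cytokine genes had 19 peaks in 8 of 34 genes, 4 positive (21.1%) and 3 negative (15.8%). Of the 8 host RNAs 4 rose and 2 fell. Lgals1, which encodes galectin-1, held one of the 2 peaks of the class at the lowest log10 adjusted p of the whole table, -434, which 37 peaks share and which gives them no order. This peak was spliced, with 4 blocks and 682 exonic bases (outer ends chr15:78926725-78930347, plus strand). Its log2 difference was -0.97, and Lgals1 RNA was 776, 766 and 774 FPKM in control and 1019, 1029 and 898 in cisplatin libraries (limma adjusted p = 0.000859, and 0.256 with quantile normalization). Lgals9, galectin-9, had a peak at 2.94 and rose from 32.5 ± 0.247 to 62.5 ± 3.38 FPKM. Csf1, the macrophage growth factor gene, had called peaks at -0.83 and 2.54 and fell from 35.6 ± 0.265 to 24.2 ± 0.727 FPKM.

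Ribosome biogenesis genes had 15 peaks in 12 of 40 genes, 6 positive (40%) and 1 negative (6.67%), near the 36.5% and 9.62% of all peaks. For all 3' UTR peaks the shares were 27.4% and 8.84%. Of the 12 host RNAs 11 rose (91.7%, beside 40.1% of all tested genes), with a median log2 change of 0.99. Ncl, nucleolin, had a peak at 5.75 (chr1:86350082-86350502, minus strand), with its middle 5573 bases from the 3' end of the gene. Ncl RNA was 281, 282 and 286 FPKM in control and 586, 568 and 649 in cisplatin libraries, without overlap (log2 change 1.08 ± 0.05, limma adjusted p = 1.3e-06). Noc2l had a peak at 2.22 that overlaps another gene and rose from 35.7 ± 1.05 to 82.8 ± 2.77 FPKM, and Utp15 had one at 3.84 and, alone of the 12, fell, from 11.5 ± 0.335 to 7.77 ± 0.702 FPKM.

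Extracellular matrix and adhesion genes had 48 peaks in 17 of 39 genes, and 21 of them were positive (43.8%) and 5 negative (10.4%). Of the 17 host RNAs 7 rose and 6 fell, which became 4 and 9 with quantile normalization and 4 and 8 with a common FPKM sum. Timp2, an inhibitor of matrix metalloproteinases, had 4 peaks with called values of 4.16, 7.28 and -0.76, and fell from 135 ± 2.09 to 117 ± 4.27 FPKM. Timp3, of the same family, had 6 peaks, positive at 5.16, 5.01, 2.2 and 2.99 and negative at -4.17, and its RNA rose from 12.5 to 16.4 FPKM on average. Sparc, a collagen-binding matrix protein gene, had a peak at -2.02 with a log10 adjusted p of -90.5 and another at 1.11. Their fold enrichments were low, at 1.34 and 1.69. Sparc RNA was 162, 163 and 159 FPKM in control and 172, 170 and 169 in cisplatin libraries. That difference (log2 change 0.08 ± 0.03, limma adjusted p = 0.0319) did not pass in the limma fit that had replicate numbers as a block (adjusted p = 0.0614), nor without any single control library or cisplatin replicate 1 (adjusted p of 0.0757 to 0.135), and turned negative under quantile normalization and a common FPKM sum.

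Cholesterol and fatty acid synthesis genes had 29 peaks in 13 of 33 genes, with 14 positive (48.3%) and 6 negative (20.7%). Of the 13 host RNAs 11 fell (84.6%, beside 41.1% of all tested genes) and 1 rose, with a median log2 change of -0.63. Scd1, a stearoyl-CoA desaturase, had a peak at 1.62 with a log10 adjusted p of -93.4. Scd1 RNA was 147, 147 and 143 FPKM in control and 97.4, 94.9 and 100 in cisplatin libraries, without overlap (log2 change -0.57 ± 0.03, limma adjusted p = 2.55e-06). Its paralog Scd2 had 6 peaks, positive at 1.15, 3.04 and 0.64 and negative at -0.78 and -1.2, and fell from 240 ± 2.36 to 155 ± 6.1 FPKM. The Scd2 peaks at 1.15 and 3.04 had fold enrichments of only 1.35 and 1.55. Insig1, which holds the sterol sensor SCAP in the endoplasmic reticulum, had peaks at 1.98 and 4.9 and fell from 62.4 ± 0.923 to 56.4 ± 1.31 FPKM.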

How the data were processed

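Strand-specific paired-end libraries of ID8 RNA were sequenced, per the labels' protocols. The submitters' processing notes list HISAT2, HOMER, fastp and FastQC and the build mm10. Roles, peak caller and annotation: not given in the sources used here. Per the file headers, the authors' deposited peak table holds a fold enrichment (ratio), scores that are log10 p-values (also adjusted) and a log2 difference, and a called peak had an adjusted p under 0.05. The deposited FPKM were whole multiples of 1 fragment in 14852 of 14852 genes (tolerance 0.0001), which gave the depths. The authors' own log2 changes and p-values of input RNA, also deposited, made no calls here.

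Genes at 1 FPKM or more in 3 of 6 input libraries (11449) were tested on log2(FPKM + 1) with limma 3.58.1 in R 4.3.3 (lmFit, eBayes with trend, Benjamini-Hochberg), and the fit was tested on simulated data. Deviations of same-numbered replicates correlated at 0.0975, -0.116 and 0.0428, and the main fit paired no libraries. Values this small cannot exclude that replicate numbers mark shared cultures. Gene spans, promoter windows and microRNAs are from RefSeq on GRCm38.p6, the assembly of mm10, and coordinates are 1-based outer ends. Named by rule were the 10 most positive and 10 most negative called peaks and the 8 most enriched (genes at 1 FPKM or more in all libraries), the 5 genes with most peaks, TGF-beta ligands and receptors with Nat10, Thumpd1 and Cd274, and up to 3 genes per list and combination of directions. Predicted genes were left out of the largest differences, and some genes that the rule names are not reported here. Timp3, Lrrc58 and the genes with printed sequences were named after their values were seen. The members and the 14 lists were chosen with earlier results of these data known.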

Additional observations from a re-analysis of the deposited data

How the results depend on the processing

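Counts of called 3' UTR peaks, of host RNAs called by limma and of genes by combined direction stayed within 1.5 times of the values given above under every alternative tried, with 2127 to 2772 host RNAs called against 2687. With the replicate number as a block 2657 were called (1420 higher, 1237 lower), and the block changed no call of the 89 named genes but that of Sparc. The median log2 change of host RNAs, 0.04 with all libraries, was 0.0718 with a filter at 5 FPKM, 0.01 with quantile normalization (0.0119) and -0.05 with a common FPKM sum (-0.0464). Its sign thus depends on the scaling. All tested genes moved with it, from -0.003 to -0.0872 with a common sum. Without a single control library the host median was 0.06 to 0.0679, below the 0.0805 to 0.0818 of all tested genes, the reverse of the order with all libraries. Without a single cisplatin library it was 0.0259 to 0.0305, above the -0.0674 to -0.063 of all tested genes. Sparc RNA turned from 0.08 to -0.07 with quantile normalization (-0.0676) and -0.02 with a common sum (-0.0214). The median fold enrichment was 8.82 with 1 value per gene against 8.23. The median distance from the 3' end was 1168 bases from the near end of the peak and 1327 for peaks wholly inside the gene, against 1317. The median 3' UTR minus CDS difference of -0.355 became -0.393 at a fold enrichment of at least 2, -0.343 in genes at 1 FPKM or more, and -0.42 against the most enriched CDS peak. Called peaks were 1567 at an adjusted p of 0.01 and 1952 with an absolute log2 difference of at least 1. Of 89 named genes, 20 changed their call in some setting. Peaks have no value per library, the depth of the IP libraries is unknown, and with 3 libraries a group an exact permutation test of a single gene cannot go below p = 0.1.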
